A study of Homo sapiens with 2 samples.

Results

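LIF, the IL6-family cytokines, their receptors and the STAT3 feedback genes were examined in H1299, a human line established from a non-small cell lung cancer. The 10 genes were chosen by name, with earlier results of these data known. They comprised the ligands LIF, IL6, IL11 and CLCF1, receptor chains LIFR, IL6ST and OSMR, the transcription factor STAT3, and inhibitors SOCS3 and SOCS2. All probe sets annotated to them were taken, 33 of the 49395 on the array, and they covered 9 of the 10 genes, out of 18132 genes represented in all. CLCF1, a ligand of the CNTF receptor, was not analysed here because the annotation used names no probe set for it. The series description concerns genes through which EGR1 might lower the malignancy of lung cancer cells. Both groups were transiently transfected with a Lipofectamine reagent. One had received the pcDNA3.1 plasmid carrying EGR1, an immediate-early zinc-finger transcription factor, and the other the empty pcDNA3.1 plasmid, and cells were collected after 48 hours. Transient transfection leaves a mixture of cells with and without plasmid, and the share that took it up is not given in the labels. Each group was 1 Affymetrix array, so no value below has a replicate error or a p-value, and every difference describes these 2 arrays.

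Cytokines of this family act on cells through the shared receptor chain IL6ST, also called gp130. IL6 and IL11 use pairs of IL6ST joined to a ligand-specific alpha chain, LIF pairs IL6ST with LIFR, and oncostatin M can pair IL6ST with OSMR. The receptors activate JAK kinases, which phosphorylate STAT3, and STAT3 in turn induces SOCS3, which binds IL6ST and the JAKs and shuts the signal off. In lung carcinoma cells this route is known as one by which tumour cells respond to their own cytokines. Transcript levels report neither secretion of a ligand nor phosphorylation of STAT3.

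The levels below are RMA values, a log2 scale per probe set made by the authors. A difference is the EGR1 array minus the empty-vector array, so that 1 log2 unit is 2-fold. The scale has no fixed zero and levels of different genes cannot be compared on it. Probe sets whose mean level was under 5.22, the 40th percentile of all, were treated as dim, and 21 of the 33 lay past this floor. Across probe sets, which are not replicates, Pearson's r between the arrays was 0.995. Of the 6 probe sets for the transfected gene EGR1, 11717861_a_at was 13.3-fold and 11751643_x_at 6.76-fold higher in the EGR1 array. The other 4 were lower, with log2 differences of -0.39, -0.30, -0.27 and -0.20. The brightest of all, 11717860_a_at, was among these 4, so EGR1 read 1.31-fold lower by its brightest probe set. The brightest probe set stands for a gene in the counts by gene below, a rule that missed the transfected gene. The check of the labels thus rests on 2 probe sets. Within a gene, differences of its probe sets had a pooled SD of 0.15 on the log2 scale over 7113 genes, which covers probe-level error and not that between cultures. Among markers of the line itself, the mesenchymal filament VIM differed by -0.07, and the epithelial keratins differed in sign: KRT8 was 3.99-fold and KRT18 3.39-fold higher with EGR1, KRT19 differed by 0.24 and KRT7 by -0.55, all past the floor. The epithelial gene EPCAM was under it. The part of these markers in the results below was not tested. Markers of leukocytes and fibroblasts were mostly dim, with 5 of 7 and 6 of 7 genes under the floor. Of 5 endothelial genes 2 were under the floor and 3 past it, beside 5480 of all 18132 genes under it. The leukocyte genes past the floor were CD68, at 8.24 with the empty vector and 8.36 with EGR1, and CD3E, at 5.18 and 5.49. The leukocyte gene PTPRC, under the floor, read 2.95 with the empty vector and 2.80 with EGR1.

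Before the values, promoter windows are shown for the members that differed most and had one, and for the member whose window held an EGR1-type motif. They are RefSeq sequences of GRCh38.p14, each the 250 bases before an annotated transcript start, printed on the strand of the gene. Of the 10 genes 7 matched the promoter table, with 10 windows in all, and LIF, CLCF1 and SOCS2 had no entry. Capitals mark matches to GCGTGGGCG or GCGGGGGCG, the EGR1-type motifs, searched on both strands.
SOCS3 (chr17:78360926-78361175, minus strand): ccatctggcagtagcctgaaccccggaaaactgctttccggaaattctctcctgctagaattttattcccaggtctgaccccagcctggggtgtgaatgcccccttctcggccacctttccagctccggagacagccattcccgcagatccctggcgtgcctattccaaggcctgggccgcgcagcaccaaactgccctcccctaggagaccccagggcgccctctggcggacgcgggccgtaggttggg
IL11 (chr19:55370464-55370713, minus strand): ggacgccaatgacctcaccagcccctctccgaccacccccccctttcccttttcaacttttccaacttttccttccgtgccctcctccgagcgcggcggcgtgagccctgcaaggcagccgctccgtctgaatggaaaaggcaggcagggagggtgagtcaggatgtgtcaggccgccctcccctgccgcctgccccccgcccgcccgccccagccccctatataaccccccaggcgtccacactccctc
LIFR (chr5:38556647-38556896, minus strand): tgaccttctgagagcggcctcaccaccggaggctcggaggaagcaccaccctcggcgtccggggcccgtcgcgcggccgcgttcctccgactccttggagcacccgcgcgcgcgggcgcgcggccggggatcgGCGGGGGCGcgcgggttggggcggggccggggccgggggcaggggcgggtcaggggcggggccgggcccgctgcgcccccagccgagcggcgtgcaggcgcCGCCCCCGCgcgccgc
The LIFR window lies inside the annotated span of LIFR, before the start of a shorter transcript, and the SOCS3 and IL11 windows lie outside the spans of their genes. The LIFR window held GCGGGGGCG at 117 bases before the start and its reverse complement at 16 bases before it, and it was the 1 window of the 10 with an EGR1-type match. Over all 35116 windows of the table, 5.37% held either motif, with 4.72% for GCGGGGGCG and 0.72% for GCGTGGGCG. For the STAT-type motif TTCNNNGAA, which reads the same on both strands, there were matches in the other 2 LIFR windows and 6.57% of all windows, and its narrower form TTCCNGGAA was in 0.968% of all windows and in none of the 10. The TATA-box motif TATAAA was in 10.7% of all windows and, among the 10, in 1 LIFR window, where matches on both strands overlapped. A match is a run of letters and was not tested as a binding site, and a window without a match says only that these letters are not in it.

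LIF, the cytokine that signals through LIFR and IL6ST, was the member with the highest difference by its brightest probe set. Probe set 11758619_s_at read 7.46 with the empty vector and 8.52 with EGR1, a log2 difference of 1.07 or 2.10-fold. Probe set 11726498_at read 6.41 and 7.26, a difference of 0.85 or 1.80-fold. Both had higher values in the EGR1 array, by several times the pooled SD between probe sets of one gene. The third, 11726497_at, was under the floor at 4.48 and 4.86 and differed by 0.39. All 3 LIF probe sets therefore lay on the same side, with a mean difference of 0.77 (SD 0.35 between probe sets, which share their 2 RNA samples). In bulk RNA, a higher level per cell and a larger share of cells with the transcript cannot be told apart. LIF ranked 39th highest of 12652 genes past the floor, counting 1 probe set per gene. The 2-fold mark was passed by 11758619_s_at, whose suffix marks probes that can bind other transcripts as well, and not by 11726498_at.

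IL11, a ligand that signals through IL11RA and IL6ST, gave discordant readings. Probe set 11727690_at read 4.28 with the empty vector and 6.25 with EGR1, a log2 difference of 1.97 or 3.92-fold. Probe set 11751797_a_at read 5.84 and 5.95, and 11727691_a_at read 5.87 and 5.92. The latter pair differed by 0.10 and 0.06, less than the pooled SD between probe sets, so a difference of IL11 appeared in 1 of its 3 probe sets. That probe set ranked 21st highest of the 27199 named probe sets past the floor, above both LIF probe sets, which ranked 82nd and 116th. Its reading with the empty vector was dim, below the floor, and its mean level of 5.27 was barely past it. The range of 1.91 between the IL11 probe sets was matched or exceeded in 4 of the 7113 genes that had several probe sets past the floor, IL11 included, or 0.0562%. Both this range and the rank rest on 11727690_at, which was past the floor only through its EGR1 reading, so neither is support for a difference. The annotation lists a different transcript record for each of the 3 IL11 probe sets, but their positions along the transcript were not established.

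IL6, which signals through IL6R and IL6ST, was dim in both arrays. Probe set 11760425_a_at read 5.08 with the empty vector and 5.17 with EGR1, and 11746463_a_at read 4.19 and 4.21. Neither was past the floor, and their differences of 0.09 and 0.02 were smaller than the pooled SD. All 3 ligands measured had higher values in every probe set. The difference was more than the pooled SD in all 3 probe sets of LIF, in 1 of IL11 and in none of IL6.

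**Figure D1:**
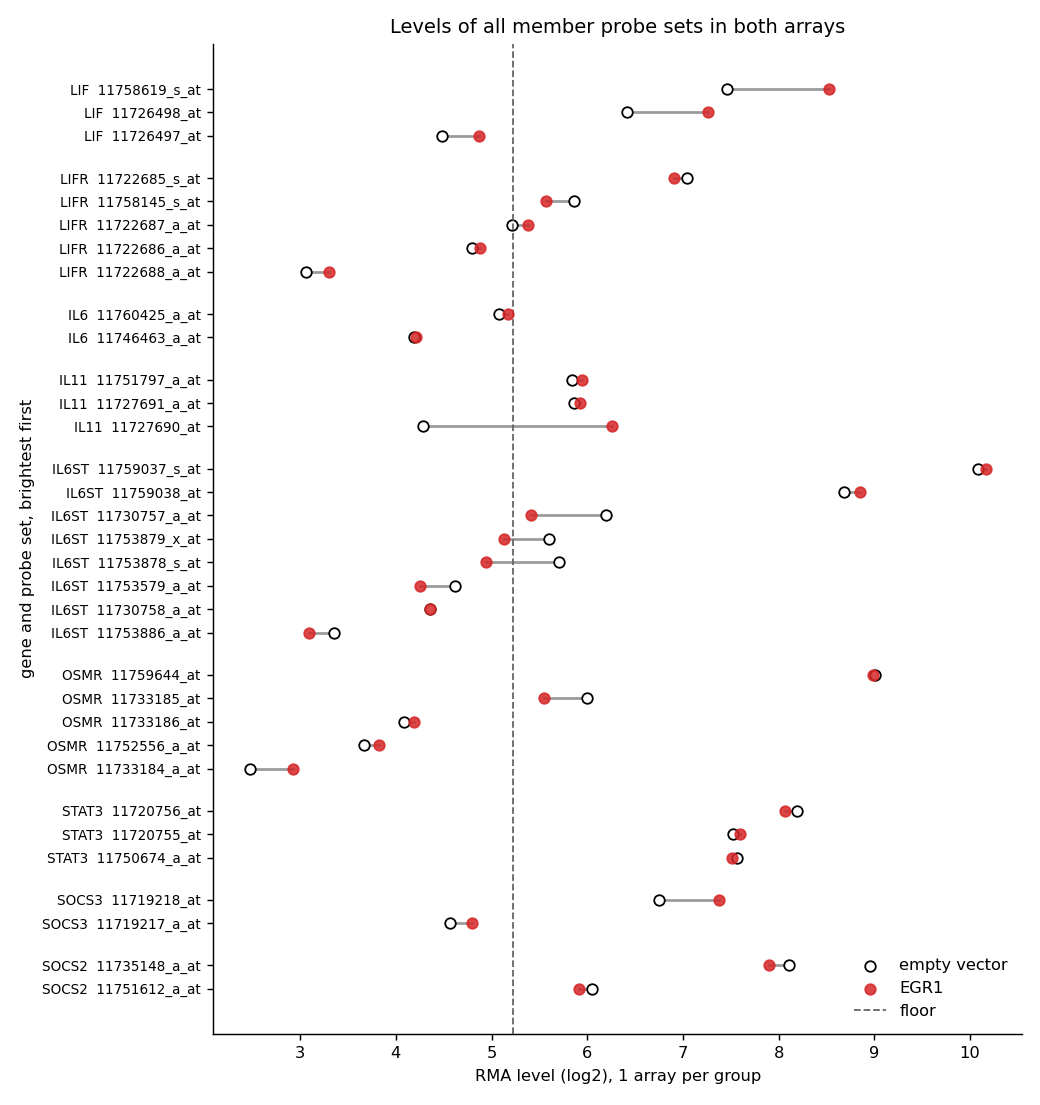
Levels (RMA, log2) of the 33 probe sets of 9 genes in the empty-vector array (open circles) and the EGR1 array (filled circles), with the floor of 5.22 as a dashed line. LIF and SOCS3 probe sets lie to the right in the EGR1 array, IL11 does so clearly in 1 of 3 probe sets, and several dimmer IL6ST probe sets lie to the left.

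IL6ST, the signal-transducing chain shared by the family, had 8 probe sets, whose readings separated by level. The brightest, 11759037_s_at, read 10.08 with the empty vector and 10.16 with EGR1, and 11759038_at read 8.68 and 8.85. Of these differences, 0.08 was under the pooled SD between probe sets and 0.17 just over it. The next 3 in order of level were lower in the EGR1 array. Probe set 11730757_a_at read 6.20 with the empty vector and 5.41 with EGR1, a log2 difference of -0.79, which is 1.73-fold lower. Probe set 11753878_s_at read 5.70 and 4.95, a difference of -0.75, and 11753879_x_at read 5.60 and 5.13, a difference of -0.47. The annotation gives this latter pair the same transcript record, so they may share probes and are not independent readings. Below the floor, 11753579_a_at differed by -0.37 and 11753886_a_at by -0.26, and 11730758_a_at was listed at 4.36 in both arrays, identical to the last digit deposited.

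In all, 5 of the 8 IL6ST probe sets were lower, 2 were higher and 1 was equal, with a mean difference of -0.30 (SD 0.36 between probe sets). The sign for the gene thus depended on the reading: it was 0.08 by the brightest probe set and -0.30 by the mean of all. Probe sets 11730757_a_at and 11753878_s_at ranked 43rd and 54th lowest of the 27199 named probe sets past the floor, the latter with an EGR1 reading of 4.95 that was itself under the floor. The range of 0.96 among the 5 IL6ST probe sets past the floor was reached by 29 of 7113 genes (0.408%), IL6ST included. Many of those genes have fewer probe sets past the floor, and a range can only widen as probe sets are added. The share is therefore not a comparison of like with like. What separates the IL6ST probe sets was not tested.

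LIFR, the LIF-specific partner of IL6ST, showed small differences of both signs. Its brightest probe set, 11722685_s_at, read 7.05 with the empty vector and 6.91 with EGR1, a log2 difference of -0.14. Probe set 11758145_s_at read 5.86 and 5.57, a difference of -0.30, and 11722687_a_at read 5.22 and 5.38, a difference of 0.17. The remaining pair under the floor differed by 0.09 and 0.23. Of the 5 LIFR probe sets 3 were higher and 2 lower, and the mean difference was 0.01. The lower pair have the suffix _s_at and the 3 higher ones do not. No LIFR probe set was at or beyond 1.5-fold, beside 0.871% of all named probe sets past the floor higher and 0.618% lower.

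OSMR, which pairs with IL6ST in the type II oncostatin M receptor, was bright by 1 probe set and nearly level there. Probe set 11759644_at read 9.01 with the empty vector and 8.98 with EGR1, a log2 difference of -0.03 that became 0.03 after a lowess correction. Probe set 11733185_at read 5.996 and 5.549, a difference of -0.45. The other 3, all under the floor, were higher by 0.11, 0.16 and 0.45, the last of these from 2.48 to 2.93. OSMR therefore read in both directions, and its mean difference was 0.05 (SD 0.33 between 5 probe sets). LIFR and OSMR are neighbours on chromosome 5, with 0 other protein-coding genes between them in the RefSeq gene table.

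STAT3, the transcription factor that these receptors activate, differed little. Probe set 11720756_at read 8.19 with the empty vector and 8.06 with EGR1, 11720755_at read 7.52 and 7.59, and 11750674_a_at read 7.56 and 7.51. The log2 differences of -0.13, 0.07 and -0.05 were each under the pooled SD between probe sets, and all 3 probe sets lay well past the floor. STAT3 is known to be controlled largely by phosphorylation, which an expression array does not read.

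SOCS3, the feedback inhibitor induced by STAT3, was higher in the EGR1 array by both of its probe sets. Probe set 11719218_at read 6.75 with the empty vector and 7.38 with EGR1, a log2 difference of 0.63 or 1.55-fold. The dimmer 11719217_a_at, under the floor, read 4.56 and 4.80, a difference of 0.23. SOCS3 ranked 100th highest of 12652 genes past the floor. By the mean of both probe sets SOCS3 differed by 0.43, under 1.5-fold, as LIF at 0.77 was under 2-fold by that measure. The promoter windows printed for SOCS3 and IL11 held none of the motifs searched.

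SOCS2, a related inhibitor best known for limiting growth hormone signalling through STAT5, lay on the other side. Probe set 11735148_a_at read 8.11 with the empty vector and 7.90 with EGR1, a log2 difference of -0.21. Probe set 11751612_a_at read 6.05 and 5.91, a difference of -0.14. Both SOCS2 probe sets were lower, by 1.16-fold and 1.10-fold, and they lay within 0.07 of each other. The inhibitors thus differed in sign, with SOCS3 higher by 1.55-fold and SOCS2 lower by 1.16-fold in their brightest probe sets; with 1 array per group this contrast has no test.

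**Figure D2:**
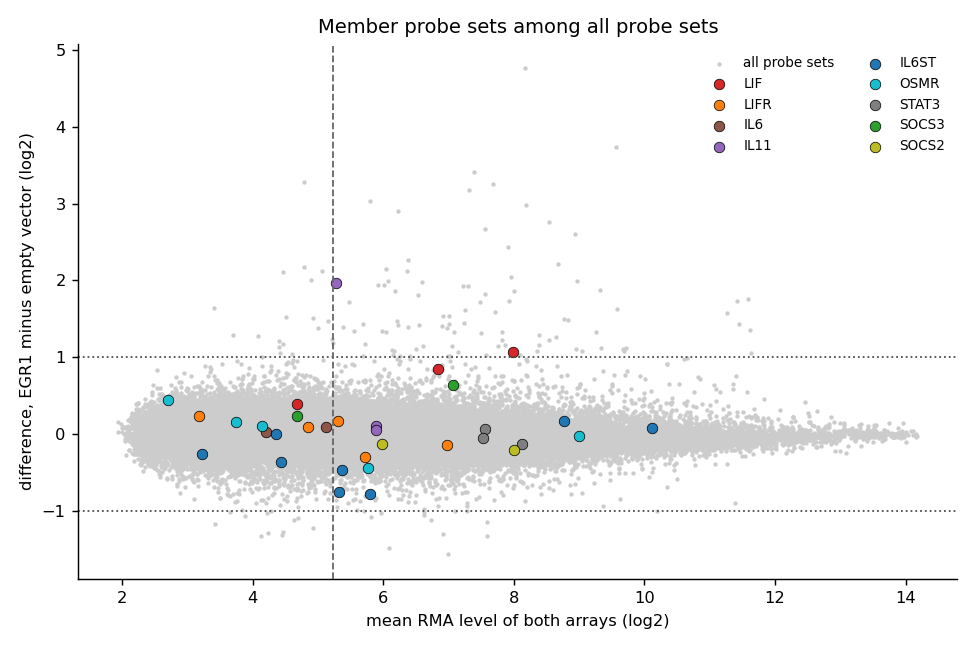
Difference between the arrays (EGR1 minus empty vector, log2) against the mean level (log2) for all 49395 probe sets (grey) and the 33 probe sets of the family (coloured by gene), with dotted lines at 2-fold and the floor of 5.22 dashed. One LIF and 1 IL11 probe set lie above the upper 2-fold line, and no probe set of the family lies below the lower one.

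Counted by gene, 8 of the 9 measured members were past the floor, and 1 of these, LIF, was at or beyond 2-fold higher. Over all 12652 genes past the floor, 0.348% were so called higher and 0.0079% lower. At 1.5-fold, LIF and SOCS3 were called higher and no member lower, beside 0.941% of all genes higher and 0.229% lower. Most of the family was thus not called, and both calls were towards higher levels, as most calls over all genes were. The members were chosen with earlier results known, so these shares are no test of enrichment, nor are those by probe set below. The median difference of the 8 members was 0.03, beside -0.02 for all genes past the floor, and 4 were above 0 and 4 below.

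Counted by probe set, the family held calls in both directions. Of its 21 probe sets past the floor, 2 were called higher at 2-fold and none was so lower, beside 0.331% of all named probe sets higher and 0.0368% lower. One of these 2, 11727690_at of IL11, was past the floor only through its EGR1 reading, so its place in the count is no support for a difference. At 1.5-fold 4 were higher, from LIF, IL11 and SOCS3, and 2 were lower, both from IL6ST, beside 0.871% higher and 0.618% lower. Of the IL6ST pair, 11753878_s_at was past the floor only through its empty-vector reading. The next highest past the floor after SOCS3 (0.63) was 11759038_at of IL6ST at 0.17, a wide gap among the probe sets past the floor. Readings under the floor lay inside that gap, among them 0.45 for an OSMR probe set and 0.39 for a LIF probe set. With the most different probe set past the floor standing for a gene, an alternative added after the values were seen, IL11 joined LIF at 2-fold through that same dim probe set, beside 0.506% of all genes called in either direction.

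**Figure D3:**
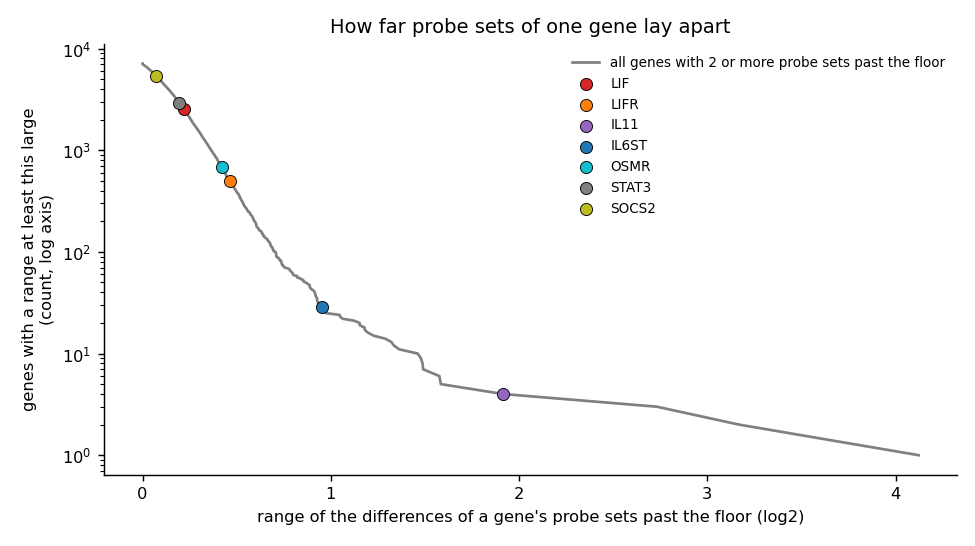
Number of genes (log axis) whose probe sets past the floor spread over at least the range on the horizontal axis (highest minus lowest difference, log2), for 7113 genes with several such probe sets. IL11 at 1.91 and IL6ST at 0.96 lie in the sparse upper tail, and LIF at 0.22, STAT3 at 0.20 and SOCS2 at 0.07 lie among the bulk. The IL11 range rests on 1 probe set that was past the floor only through its EGR1 reading. Genes differ in their number of such probe sets, and a range can only widen as probe sets are added.

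The other genes of the pathway were read by their brightest probe set, from lists chosen with earlier results of these data known. Of 7 further family ligands 5 were measured and 4 were past the floor. None of the 4 was at or beyond 1.5-fold, beside 0.941% of all genes higher and 0.229% lower. CTF1 (cardiotrophin) differed by 0.15, EBI3, a subunit of interleukin 27, by 0.07 and OSM (oncostatin M) by -0.16, while IL27 was identical in both arrays. OSM is the immediate neighbour of LIF on chromosome 22, with 0 protein-coding genes between them, and read 5.91 with the empty vector and 5.74 with EGR1. The neighbours LIF and OSM thus lay on opposite sides of 0 by their brightest probe sets, although the other OSM probe set, under the floor, differed by 0.16.

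Among 5 further receptors, all measured and 4 past the floor, IL27RA had the largest difference. It read 6.93 with the empty vector and 7.45 with EGR1, 1.44-fold higher by its 1 probe set. IL11RA, the alpha chain for IL11, differed by 0.10, CNTFR by 0.05 and IL31RA by -0.20. The IL6 alpha chain IL6R was under the floor, at 4.63 and 4.74. The receptor genes as a list had a median of 0.10 over 5 genes, beside 0 for all 18132 genes.

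Of 10 listed kinases and other STATs, 8 were measured and 6 past the floor, and none of the 6 was at or beyond 1.5-fold by its brightest probe set, beside 0.941% of all genes higher and 0.229% lower. STAT6 differed by 0.23, TYK2 by 0.06, JAK2 by -0.17 and STAT5B by -0.26. The kinase JAK1 differed by 0.04 in its brightest probe set and by -0.49 in its lowest past the floor. The STAT5B probe sets ranged from -0.26 to 0.23 in all and from -0.26 to -0.12 past the floor. STAT3, STAT5A and STAT5B are neighbours on chromosome 17; STAT5A, under the floor, read 4.03 with the empty vector and 4.52 with EGR1, a difference of 0.49.

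Of 15 other negative regulators, which comprise SOCS, PIAS and phosphatase genes, 14 were measured and 13 were past the floor. None of the 13 was at or beyond 1.5-fold, beside 0.941% of all genes higher and 0.229% lower. Of the 14 measured, 6 were above 0 and 7 below. PIAS4 differed by 0.34, PTPN6 by -0.22, PTPN11 by -0.21 and PIAS2 by -0.16, each within a gene whose probe sets included at least 1 reading of 0 or the opposite sign. SOCS3 was thus the 1 gene among the 2 inhibitor members and these 13 past the floor that reached 1.5-fold, beside 0.941% of all genes higher.

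Genes known as STAT3 targets in various cells were read from a list chosen with results of these data known. Apart from the members SOCS3, STAT3 and OSMR, 24 were measured and past the floor. Of these 16 were above 0 and 8 below, where 44.6% of all genes past the floor were above 0, and their median was 0.19 beside -0.02 for all genes past the floor. Of these 24, 3 were at or beyond 2-fold higher and none lower, which is 12.5% beside 0.348% of all genes. The metalloproteinase inhibitor TIMP1 read 10.93 with the empty vector and 12.29 with EGR1, the Notch-responsive repressor HES1 7.15 and 8.48, and the AP-1 subunit FOS 9.12 and 10.22. These were 2.56-fold, 2.51-fold and 2.15-fold higher. JUNB, another AP-1 subunit, was 1.87-fold higher. The kinase PIM1 (0.82) and the mRNA-decay factor ZFP36 (0.66), named outside the rule after their values were seen, completed the 6 at or beyond 1.5-fold, all higher, which is 25% of the 24 beside 0.941% of all genes. Probe sets of TIMP1 ranged from 0.11 to 1.43 and those of HES1 past the floor from -0.03 to 1.33, whereas the 4 FOS probe sets ranged from 0.75 to 1.10. Many of these genes also respond to other pathways, so the count supports no statement about STAT3.

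Acute-phase genes, the classical liver targets of IL6 and STAT3, were mostly dim. Of 18 listed, 17 were measured and 15 were under the floor. SERPINA1, which encodes alpha-1-antitrypsin, read 5.31 with the empty vector and 7.43 with EGR1, 4.35-fold higher, with differences from 0.33 to 3.04 over its probe sets. HAMP, the hepcidin gene, differed by 0.19. With 15 of its 17 measured genes dim, the list shows little beyond these 2 genes.

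**Figure D4:**
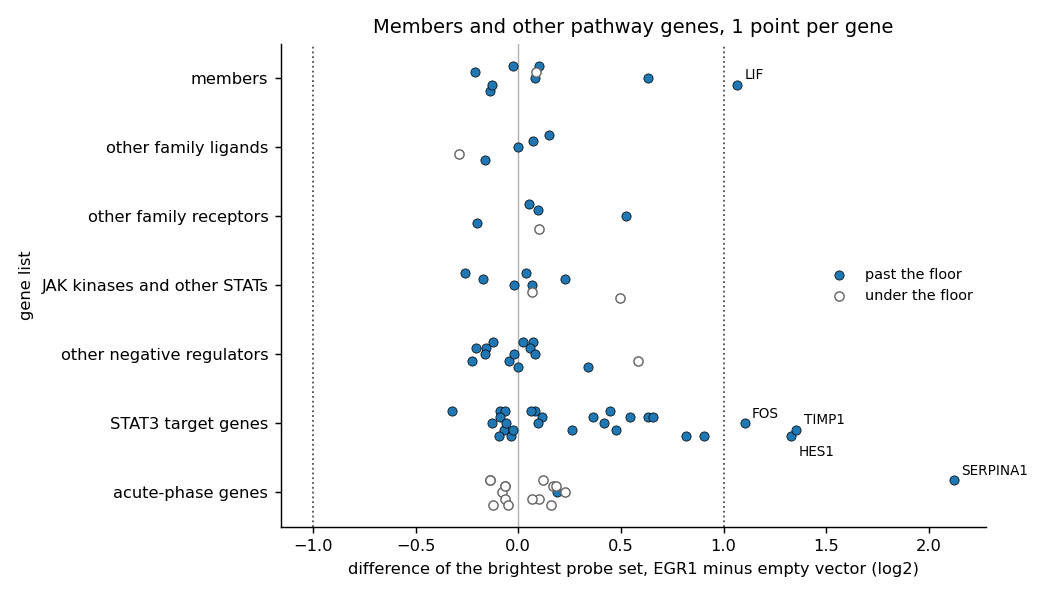
Difference of the brightest probe set (EGR1 minus empty vector, log2) for each gene of the family and of the other pathway lists, 1 point per gene, filled past the floor and open under it, with dotted lines at 2-fold. LIF, FOS, HES1, TIMP1 and SERPINA1 lie beyond the upper 2-fold line, and the points of the other 4 lists lie inside the lines.

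The genes whose difference by the brightest probe set was nearest that of LIF, a likeness over 2 arrays and so no more than an equal fold, were GNG7, DDIT3, GADD45B and TRIB1. GNG7, a G-protein gamma subunit, was 2.11-fold higher, the stress-induced transcription factor DDIT3 2.11-fold, the stress-response gene GADD45B 2.07-fold and the pseudokinase TRIB1 2.12-fold, beside 2.10-fold for LIF.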

How the data were processed

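Gene expression in 2 samples was read on 1 Affymetrix array each. The authors deposited RMA levels on a log2 scale, per the submitters' processing notes. The software behind RMA, its settings and the number of arrays normalized with these are not given in the labels. RMA pulls the arrays to a like distribution and gives no detection call, so small differences and dim levels are the least certain.

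Genes were assigned from the platform annotation and symbols updated by Entrez ID to a RefSeq gene table (GRCh38.p14); 44988 probe sets had 1 symbol, 1832 several and 2473 none, and 102 were controls. Probe sets with several symbols named no gene. The brightest probe set stood for a gene (18132 genes, 12652 past the floor). Differences are EGR1 minus empty vector, with no further normalization. With 1 array per group no test was possible, and the number of arrays limits the precision. Called means at or beyond 2-fold, or 1.5-fold where said. Alternatives were the mean of all probe sets, no _x_at or _s_at probe sets, no floor, a floor at the 60th percentile, a lowess correction (fraction 0.3, statsmodels 0.14.6) and median centring. The calculation was checked on simulated data. The members and lists were chosen with earlier results of these data known. Named genes were all members, EGR1, in each list up to 4 genes past the floor by size of difference and any at 2-fold, and the 4 genes nearest LIF. IL6R, STAT5A, JAK1, VIM, EPCAM and PTPRC were named outside this rule, as were PIM1 and ZFP36, after their values were seen. Python 3.11.15 was used.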

Additional observations from a re-analysis of the deposited data

How the results depend on the processing

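No paired analysis was possible because each group held 1 array. The count of members at or beyond 2-fold was 1, beside 0.356% of all genes in either direction. It stayed at 1 without a floor (0.298% of all genes), with a floor at the 60th percentile (0.354%), with the lowess correction (0.364%) and with median centring (0.386%). Taking the mean of all probe sets gave 0 (0.77 for LIF), beside 0.294% of all genes. Leaving out _x_at and _s_at probe sets also gave 0 (0.85 for LIF), beside 0.3%. The count was 2 at 1.5-fold, beside 1.17%. It was also 2 with the most different probe set past the floor, beside 0.506%, an alternative added after seeing the data. The median difference of 0.03 became 0.20 with the mean of all probe sets, where 6 members were past the floor, -0.17 with the most different probe set and -0.03 with the floor at the 60th percentile, so its sign is not settled. Of 44 values of single members under the alternatives, 33 moved by less than the pooled SD between probe sets (0.15), and 6 changed sign. Under the mean of all probe sets SOCS3 was 0.43 and IL11 0.71, and under the lowess correction LIF was 1.12 and SOCS3 0.66. No replicate could be left out. Dim signal limits IL6, the IL11 reading with the empty vector and the dimmer IL6ST and OSMR probe sets.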
